A study of Mus musculus with 2 samples.

Results

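Apoc1, Apoe, Ambp, Tm4sf4 and Ces1d are 5 of the 14789 gene symbols counted in single cells sorted from the pancreas of adult mice. They were chosen because they were high in ductal cells of these same data. Their levels and shares in ductal cells are therefore descriptions with no test. Cells were classed by transcripts, as ductal (2 or more unique molecular identifiers, UMIs, of Krt19, Epcam and Spp1 together), acinar (at least 10% of UMIs from 10 digestive enzyme genes), macrophage (3 or more UMIs of C1qa, C1qb and C1qc) or other (none of these rules). All animals carried the genotype Tff2CreERT2; R26-tdTomato and were tamoxifen induced, so that the Tff2 promoter drove the Cre that switched on the red reporter. Live CD45-TER119-EpCAM+RFP+ cells were sorted for 10x Genomics libraries. The time from tamoxifen to the sort was not stated. The labels name 2 biological replicates of this 1 group and no control group. Cells could not be tied to the replicates, so all values come from 1 pooled sample without a replicate check.

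Apolipoproteins are the protein part of lipoprotein particles. Apoe is bound by cell surface receptors that take up these particles and is made in liver and in macrophages, and Apoc1, encoded beside it, is a small apolipoprotein that slows the uptake and breakdown of these particles. Ambp encodes a precursor that is cleaved into the lipocalin alpha-1-microglobulin and the protease inhibitor bikunin, Tm4sf4 encodes a membrane protein of the L6 family, and Ces1d encodes a carboxylesterase that hydrolyses triglycerides. These genes are best known from liver, and the biliary and pancreatic ducts arise from neighbouring foregut endoderm.

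The 728 cells held 2353008 UMIs, with 1004 to 53222 per cell (median 2085.5). The rules gave 37 ductal cells (138642 UMIs, median 3241 per cell), 261 acinar cells (1045646, median 2057), 21 macrophages (50450, median 2284) and 395 other cells (984183, median 1974). A further 14 cells met more than 1 rule, 13 of them the ductal and the acinar rule, and were kept apart. In the ductal cells 14 of 15 ductal markers had UMIs. Among those outside the rule, Clu was seen in 37 of 37 cells, Krt18 in 35, Krt8 in 34 and Sox9 in 28, while Tspan8 was at 0. Against the labelled gate, the table held cell types known to be CD45-positive (the 21 macrophages, 101 cells with B cell and 75 with T and NK cell markers), TER119-positive (16 with erythroid markers) or without EpCAM (145 with endothelial and 17 with mesenchymal markers). Barcodes ended in 1 for 667 cells and in 2 for 61. Of the ductal cells 33 had ending 1 and 4 had ending 2. The endings shared 7 barcode sequences, none of them in a ductal cell.

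One ductal cell stood apart. It had 3 Krt19 UMIs and no Epcam or Spp1, and it carried 22 Col3a1 and 22 Dcn UMIs, transcripts of mesenchymal cells. Among the 5 genes it had only Apoe, with 19 UMIs. Its rule sum of 3 was the lowest, and the next ductal cell had 11 (median 57, highest 156). No cell classed as ductal or other had exactly 2 UMIs of the rule genes. Cells meeting more than 1 rule were not part of this count. The 13 cells of the other class with 1 UMI of the rule genes held 20 Apoe UMIs, 1 Ces1d UMI and none of the other 3 genes. Values with and without this cell are given where they differ in a way that matters.

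Apoc1 (ENSMUSG00000040564.14) lies on the minus strand of chr7:19689481-19692660 (GRCm38, GENCODE M21) with 3 exons in its principal transcript. Apoe (ENSMUSG00000002985.16, chr7:19696109-19699188, minus strand, 4 exons) lies in the same cluster, with 3448 bases between Apoc1 and Apoe. Ambp (ENSMUSG00000028356.4) lies at chr4:63143275-63154799 on the minus strand with 10 exons, Tm4sf4 (ENSMUSG00000027801.7) at chr3:57425314-57441677 on the plus strand with 5, and Ces1d (ENSMUSG00000056973.6) at chr8:93166068-93197838 on the minus strand with 14. Ces1d sits in a family of near-identical carboxylesterase genes, so reads may have been split between copies and its counts are uncertain.

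RefSeq promoter windows (GRCm38.p6) were matched for Apoe, Ambp and Tm4sf4. They are shown because these genes share a high level in ductal cells and a low one in acinar cells. Each window is the 250 bases before the RefSeq start, 5′ to 3′ on the gene's strand, and for Tm4sf4 the first 154 bases are printed, since GENCODE places the last 96 in an exon. Of 3 Apoe windows in the table, the one at the GENCODE start is shown and searched. The Ambp window lies inside the GENCODE gene, downstream of its annotated start and outside its exons, since it is placed by the RefSeq start. Capitals mark matches to the motifs searched on either strand.
Apoe, chr7:19699189-19699438, minus strand: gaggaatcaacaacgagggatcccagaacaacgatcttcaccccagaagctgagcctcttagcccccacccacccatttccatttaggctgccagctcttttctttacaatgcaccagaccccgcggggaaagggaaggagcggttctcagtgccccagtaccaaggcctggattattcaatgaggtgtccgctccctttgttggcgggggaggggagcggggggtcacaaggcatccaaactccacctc
Ambp, chr4:63154173-63154422, minus strand: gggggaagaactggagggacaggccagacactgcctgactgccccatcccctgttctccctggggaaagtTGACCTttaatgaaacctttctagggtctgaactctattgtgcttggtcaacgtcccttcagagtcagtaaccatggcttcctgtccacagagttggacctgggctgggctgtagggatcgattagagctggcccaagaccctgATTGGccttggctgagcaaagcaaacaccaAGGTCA
Tm4sf4, chr3:57425160-57425313, plus strand: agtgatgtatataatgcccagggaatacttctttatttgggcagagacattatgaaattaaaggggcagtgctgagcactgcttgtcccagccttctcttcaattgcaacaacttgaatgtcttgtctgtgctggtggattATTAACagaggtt
The 6 motifs were GTTAAT (a homeodomain half-site), AGGTCA (nuclear receptor half-site), ATTGAT (Onecut core), TGTTTAC (forkhead core), TATAAA, known from core promoters, and CCAAT, bound by nuclear factor Y. No 2 matches overlapped. Ambp held AGGTCA at bases 71 to 76 (as TGACCT) and at 245 to 250, and CCAAT at 215 to 219 (as ATTGG). Tm4sf4 held GTTAAT at bases 142 to 147 (as ATTAAC) and CCAAT at 155 to 159 (as ATTGG), beyond the printed stretch. The Apoe window, 57.2% G and C against 54.4% for Ambp and 40.8% for Tm4sf4, held none of the 6. Among all 32851 windows of that length, 14.0% held AGGTCA, 6.43% GTTAAT and 33.8% CCAAT, with 6.72% for ATTGAT, 3.17% for TGTTTAC and 12.4% for TATAAA. The matches are descriptions of the letters in these windows.

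The first comparison asks how the genes stood in ductal against acinar cells, the cells that make digestive enzymes. All 5 were at least 100-fold higher in ductal cells. Levels are UMIs summed over a class and divided by all UMIs of that class, on the usual CPM scale, with exact 95% Poisson intervals that cover counting error only. Apoc1 had 124 UMIs in ductal cells (894 CPM, 744 to 1066), in 23 of the 37 cells. It had 0 of 1045646 UMIs in acinar cells, which allows up to 2.87 CPM. By the lower end of the exact 95% interval of the ratio, its level in ductal cells was at least 250-fold higher. Every Apoc1 UMI of the table lay in a ductal cell.

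Apoe had 1303 UMIs in ductal cells (9398 CPM, 8895 to 9923) and was seen in all 37. Acinar cells held 30 Apoe UMIs in 26 of 261 cells (28.7 CPM, 19.4 to 41.0), with no cell above 2 UMIs. The ratio was 328 (95% interval 228 to 488). Per cell, Apoe ranged from 6.48 to 218 UMIs per 10000 in ductal cells (median 80.6), and from 0 to 15.9 in acinar cells (median 0). The ranges overlapped only at the low end of the ductal cells.

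Ambp had 150 UMIs in 32 ductal cells (1082 CPM, 916 to 1270) and 2 UMIs in 2 acinar cells (1.91 CPM, 0.232 to 6.91), a ratio of 566 (154 to 4714). Tm4sf4 had 220 UMIs in 34 ductal cells (1587 CPM, 1384 to 1811) and 3 in 3 acinar cells (2.87 CPM, 0.592 to 8.38), a ratio of 553 (187 to 2703). Ces1d had 97 UMIs in 27 ductal cells (700 CPM, 567 to 854) and 1 in an acinar cell (0.956 CPM, 0.0242 to 5.33), a ratio of 732 (128 to 29190). The upper ends are wide because 1 to 3 acinar UMIs carry each ratio. In the plot of levels by cell type the 5 ductal points stand apart from every acinar point or limit.

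**Figure D1:**
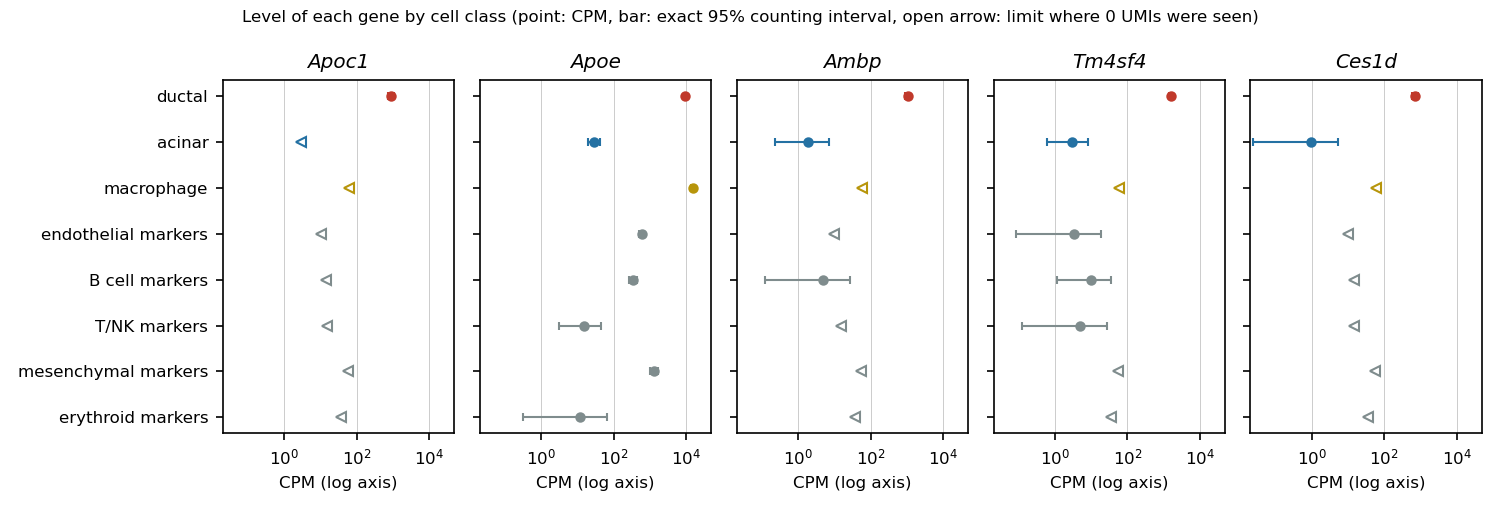
Level of each gene (CPM, log axis) in the ductal, acinar and macrophage classes and in other cells divided by markers. Points are CPM, bars exact 95% counting intervals, and open arrows the limit where no UMI was seen; Apoe alone has a macrophage point, at 15164 CPM, to the right of its ductal point at 9398 CPM.

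At a fixed ratio of 2, 72.9% of the 967 genes with at least 50 UMIs over both classes were higher in ductal cells. The 10 enzyme genes made up 53.7% of acinar UMIs. With genes at 0 set to their limit the share was 72.7%. Nothing is read from the count of 5 against these shares, because the genes were chosen on the contrast. By log2 ratio (with a prior of 0.5 UMIs) Apoc1 ranked 2, Ces1d 6, Tm4sf4 7, Ambp 9 and Apoe 11 of the 967. Atp1b1, a subunit of the sodium pump, ranked above Apoc1. Relative to UMIs outside the 10 enzyme genes, the median log2 ratio over the 967 genes fell from 2.16 to 1.07 and the share higher in ductal cells from 72.9% to 51.6%. The log2 ratio of Apoe then moved from 8.36 to 7.26, and that of Apoc1, with its acinar 0 set to the limit, from 8.28 to 7.19.

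**Figure D2:**
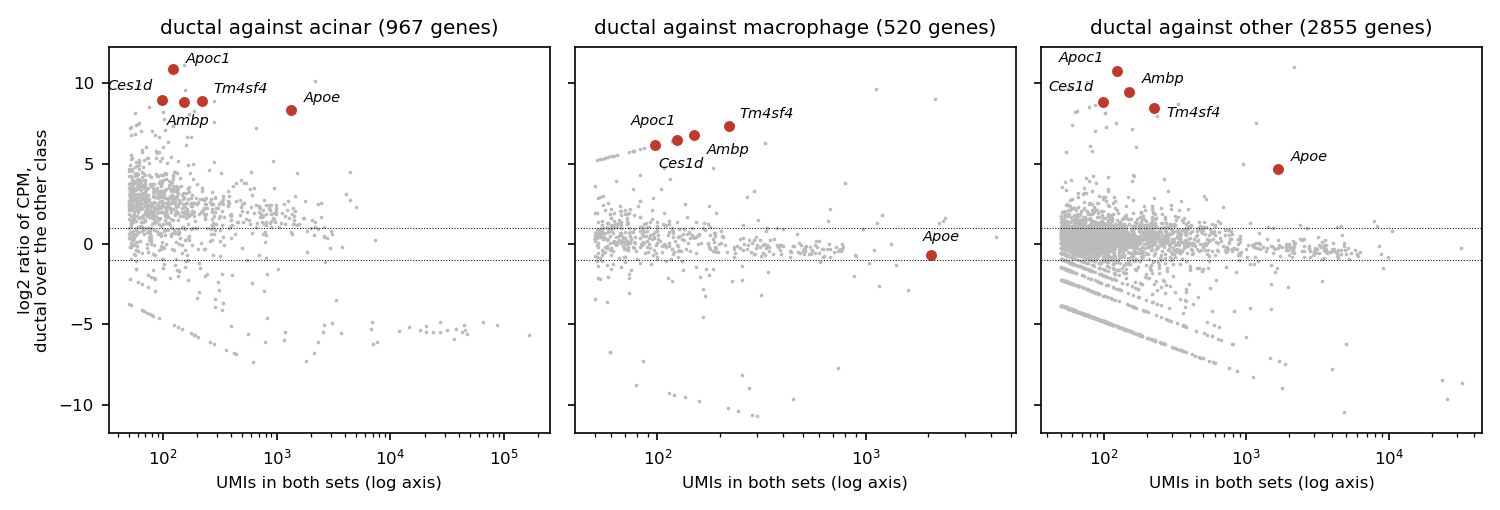
Ratio of CPM on a log2 scale, ductal over acinar, macrophage or other cells (prior of 0.5 UMIs), against the UMIs of both sets on a log axis. Each grey point is a gene with at least 50 UMIs, the dotted lines mark a ratio of 2 in either direction, and the red points show all 5 genes high against acinar and other cells and Apoe alone below 0 against macrophages.

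The second comparison set ductal cells beside macrophages, the cell type in which Apoe is a known product. Apoe was the one gene of the 5 seen there, and its pooled level was above that of ductal cells. Macrophages held 765 Apoe UMIs (15164 CPM, 14108 to 16277), with 2 to 155 UMIs per cell (median 32) and UMIs in all 21 cells. The level was 1.61 times that of ductal cells (1.47 to 1.77), and 2 macrophages held 270 of the 765 UMIs. This interval covers counting error only and not the spread between cells. No difference in Apoe between the 2 classes is read from it. Per cell the classes overlapped widely: macrophages ranged from 12.4 to 515 UMIs per 10000 (median 119), against 6.48 to 218 in ductal cells (median 80.6).

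Apoc1, Ambp, Tm4sf4 and Ces1d had 0 of 50450 UMIs in macrophages. This allows up to 59.5 CPM for each, or a share of up to 14.3% of macrophages with a UMI. Against these limits Tm4sf4 was at least 26.7-fold higher in ductal cells, Ambp at least 18.2-fold, Apoc1 at least 15-fold and Ces1d at least 11.8-fold. Of 520 genes tested 26.7% were at least 2-fold higher in ductal cells (28.3% with genes at 0 set to their limit) and 11.3% at least 2-fold lower. Nothing is read from the count of 4 against this share. Macrophage markers gave 5 UMIs in the ductal cells, 1 each of C1qb, Cd68, Csf1r, Lyz2 and Trem2, with 10 of 15 markers including C1qa and C1qc at 0.

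**Figure D3:**
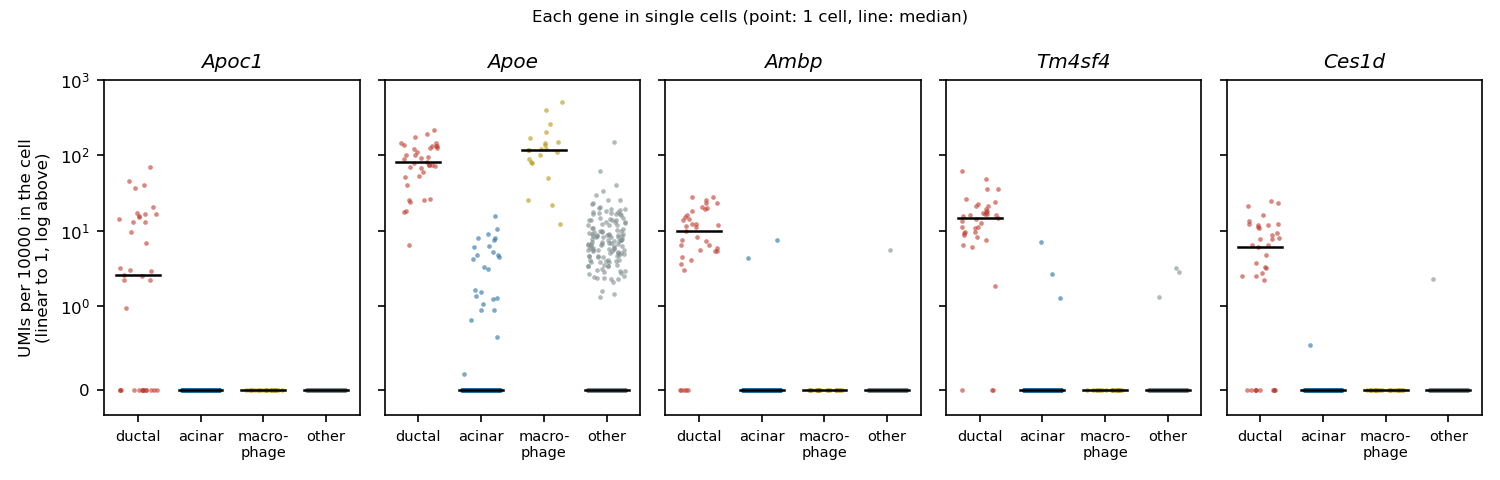
UMIs per 10000 of each gene in single cells of the 4 classes (linear up to 1, log above), with 1 point per cell and a black line at the median. Apoe points of ductal cells (median 80.6) and macrophages (median 119) overlap, while the other 4 genes have points above 0 almost only in ductal cells.

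Apoc1 and Apoe are neighbours, and their ratio differed between ductal cells and macrophages. Ductal cells held 9.52 Apoc1 UMIs per 100 Apoe UMIs (7.85 to 11.4). The value was 9.56 under barcode ending 1 and 9.0 under ending 2. Macrophages had 0 Apoc1 for 765 Apoe UMIs, which allows up to 0.392 per 100, and the other cells 0 for 362, which allows up to 0.829. Acinar cells, with 30 Apoe UMIs, allow up to 10.0 per 100, so no difference from ductal cells was detectable there.

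**Figure D4:**
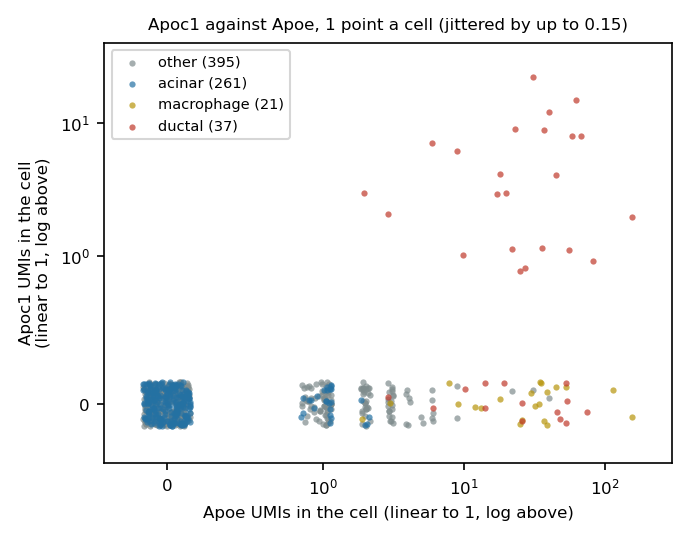
Apoc1 against Apoe UMIs in single cells (both axes linear up to 1, log above, jittered by up to 0.15), coloured by class. Macrophages reach 155 Apoe UMIs with 0 Apoc1, and the 23 cells with Apoc1 are all ductal.

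The third comparison was with the 395 other cells. Apoe was widespread among them at a low level, and the other 4 genes were nearly absent. They held 362 Apoe UMIs in 136 cells (368 CPM, 331 to 408), and ductal cells were 25.6 times higher (22.7 to 28.8). Apoc1 had 0 UMIs, a limit of 3.05 CPM and a ratio of at least 293. Ambp had 1 UMI (ratio 1065, 188 to 42335), Tm4sf4 had 4 UMIs in 3 cells (390, 150 to 1446) and Ces1d had 1 UMI (689, 121 to 27474). Of 2855 genes tested 16% were at least 2-fold higher in ductal cells (15.5% with genes at 0 set to their limit) and 21.4% at least 2-fold lower.

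Apoe differed between the cell types among the other cells. Cells with mesenchymal markers had the highest level, 1327 CPM (1036 to 1673), but 62 of their 71 UMIs lay in 2 of 17 cells. Endothelial cells had 588 CPM (504 to 681), in 85 of 145 cells with no more than 9 UMIs each. B cells had 343 CPM (268 to 432), with 31 of 71 UMIs in 1 cell. T and NK cells had 14.9 CPM (3.08 to 43.6) and erythroid cells 12.1 (0.305 to 67.2), from 3 UMIs and 1 UMI. The endothelial level was 39.4 times that of T and NK cells (13.3 to 193) and 20.5 times that of acinar cells (13.9 to 31.3). Acinar and T and NK cells did not differ beyond counting error (ratio 1.92, 0.598 to 9.84). By pooled CPM, the Apoe level fell from macrophages through ductal, mesenchymal, endothelial and B cells to acinar, T and NK and erythroid cells. The last 3 neighbours in that order have overlapping intervals.

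Shares of cells with a UMI depend on depth, so each cell was also thinned to 1000 UMIs. In ductal cells the share with Apoe was 100% before and after thinning. Tm4sf4 went from 91.9% (78.1 to 98.3) to 83.8%, Ambp from 86.5% (71.2 to 95.5) to 59.5%, Ces1d from 73.0% (55.9 to 86.2) to 45.9% and Apoc1 from 62.2% (44.8 to 77.5) to 37.8%. In acinar cells, set beside them as the type with low levels by choice of the genes, unthinned shares were 9.96% for Apoe, 1.15% for Tm4sf4, 0.766% for Ambp, 0.383% for Ces1d and 0 of 261 for Apoc1, which allows up to 1.15%. Median depths were 3241 UMIs in ductal and 2057 in acinar cells, and since the genes were chosen on this contrast nothing further is read from the shares.

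Cells meeting more than 1 rule did not carry the set at ductal levels. These 14 cells, 13 ductal and acinar and 1 acinar and macrophage by rule, had 134087 UMIs, 50.5% of them from the 10 enzyme genes. The genes of the ductal rule were also far below their ductal levels. Spp1 stood at 239 CPM (15645 in ductal cells), Epcam at 89.5 (844) and Krt19 at 44.7 (418). They held 14 Apoe UMIs (104 CPM, 57.1 to 175), 3 Tm4sf4 UMIs in 2 cells, and none of Apoc1, Ambp and Ces1d, which allows up to 22.4 CPM for each. Ductal cells were 90.0 times higher in Apoe (53.5 to 165) and 70.9 times in Tm4sf4 (24.0 to 347).

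Within the 37 ductal cells the genes were seen together but not evenly. All 5 had UMIs in 15 cells, 4 of them in 15, 3 in 5, 2 in 1 cell and 1 in the cell without Epcam and Spp1. Apoe ranged from 2 to 157 UMIs per cell (median 26), Tm4sf4 from 0 to 20 (median 5), Ambp from 0 to 22 (median 3), Ces1d from 0 to 12 (median 2) and Apoc1 from 0 to 22 (median 1). With that cell left out, Ambp stood at 1111 CPM and Ces1d at 718 CPM.

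**Figure D5:**
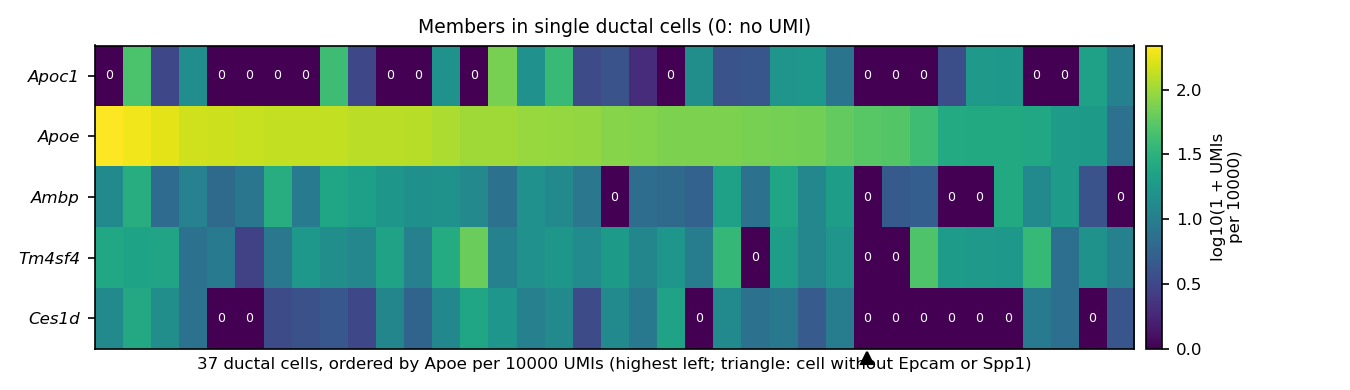
Colour shows log10 of 1 plus UMIs per 10000 for each gene (rows) in each of the 37 ductal cells (columns), ordered by Apoe, with 0 marking no UMI and a triangle marking the cell without Epcam or Spp1. Apoe is present in every column, and the 14 columns without Apoc1 lie on both sides of the Apoe order.

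Apoc1 was the most uneven. Its highest 5 cells held 54.0% of its UMIs, against 34.2% for Apoe, 36.4% for Tm4sf4, 39.3% for Ambp and 45.4% for Ces1d. At 1000 UMIs per cell, the variance over the mean was 4.07 for Apoc1, 3.38 for Apoe, 1.65 for Ces1d, 1.23 for Tm4sf4 and 1.22 for Ambp, where counting alone gives about 1. The cell with 22 Apoc1 UMIs had 3101 UMIs in all, while a cell with 5431 UMIs and 75 of Apoe had none. The 14 cells without Apoc1 had a median depth of 2656.5 UMIs and the 23 with it 3348. Those 14 held Apoe at 10555 CPM (9599 to 11580) and the other 23 at 8890 CPM (8304 to 9506). These intervals cover counting error only, and Apoe varied between ductal cells beyond counting (3.38 above). No difference in Apoe between the cells with and without Apoc1 is read from them. Ambp, Tm4sf4 and Ces1d had overlapping intervals in the cells with and without Apoc1, at 1101 and 1039 CPM, 1558 and 1653 CPM, and 768 and 543 CPM.

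Pearson correlations of ln(1 + UMIs per 10000) over the 37 ductal cells are given as descriptions of sparse counts from shared libraries. They were highest for Apoe with Ambp (0.47), Ambp with Ces1d (0.42), Tm4sf4 with Ces1d (0.39) and Apoe with Ces1d (0.38). Apoc1 with its neighbour Apoe gave -0.08, and Apoc1 with the other 3 genes gave 0.08 to 0.14. Without the cell lacking Epcam and Spp1, Apoe with Ambp gave 0.48, Apoe with Ces1d 0.38, Ambp with Ces1d 0.37 and Tm4sf4 with Ces1d 0.32, so that their order changed. Apoc1 then gave -0.09 with Apoe and 0.02 to 0.09 with the other 3 genes.

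Genes most like the 5 across all 728 cells were ranked by the mean Pearson correlation over the 5, among 3488 genes with at least 50 UMIs. The 5 themselves, the genes of the class rules (Spp1, Epcam and Krt19 among them) and mitochondrial and ribosomal protein genes were left out. Because the 5 were chosen as high in ductal cells, a ranking over all cells favours ductal genes by construction. The leading 10 were Tstd1 (0.74), Atp1b1 (0.73), Dcdc2a (0.68), 1700011H14Rik (0.66), Pdzk1ip1 (0.65), Krt8 (0.63), Cldn3 (0.62), Wfdc15b (0.62), Cp (0.62) and Cldn7 (0.60). Krt8 is a keratin of simple epithelia, Cldn3 and Cldn7 are tight junction claudins, and Cp encodes ceruloplasmin, a plasma copper protein. Tstd1 had 154 UMIs in ductal cells, 1 in acinar cells, 0 in macrophages and 1 in other cells. Within ductal cells alone (549 genes with a UMI in at least 50% of them) the closest gene was Mrfap1 for Apoc1 (0.58), Gapdh for Apoe (0.59), Clu for Ambp (0.56), Atp1b1 for Tm4sf4 (0.65) and Pdzk1ip1 for Ces1d (0.54). Without the cell lacking Epcam and Spp1 these pairs gave 0.57, 0.59, 0.46, 0.57 and 0.51, and for Ces1d both Rsrp1 (0.56) and Hypk (0.52) then stood above Pdzk1ip1.

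Other apolipoproteins were few. Of 21 on the list 12 were measured, and besides Apoe and Apoc1 only Clu, the chaperone also called apolipoprotein J, was abundant in ductal cells. Clu had 1120 UMIs there (8078 CPM) in all 37 cells, 372 CPM in acinar cells, 43.7 CPM in other cells and 0 UMIs in macrophages. Pltp, a phospholipid transfer protein of plasma, went the other way, with 2 UMIs in ductal cells and 175 in other cells (log2 ratio -3.31, -6.68 to -1.75). Apoc4, of the same cluster, had 0 UMIs in ductal cells and 1 in the whole table. Of the remaining neighbours, Tomm40, Clptm1 and Bcam had log2 ratios of ductal over other cells of 0.02, 0.59 and -0.18, each with an interval that includes 0.

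Receptor and lipid efflux genes had 101 UMIs in ductal cells over 19 measured genes. Summed, they stood at 728 CPM in ductal cells, 103 in acinar cells, 2161 in macrophages and 1197 in other cells. Among the other cells, endothelial cells had 2189, mesenchymal cells 1682 and cells with markers of more than 1 type 1519. Cells with no marker set had 923, T and NK cells 702, B cells 463 and erythroid cells 12.1. Against other cells, 5 of them passed the floor of 50 UMIs, none was at least 2-fold higher and 2 were lower: Scarb1, the HDL receptor, at a log2 ratio of -2.50 (-4.28 to -1.39), and Cd36, a fatty acid transporter, with 0 UMIs in ductal and 247 in other cells. The median of the 5 was -0.53 (-0.55 with genes at 0 set to their limit), against 0.08 over all genes tested, of which 16% were higher and 21.4% lower. With 5 genes, nothing is read from these counts against those shares. Npc2, a lysosomal cholesterol carrier, had 202 CPM in ductal cells, 23.0 CPM in acinar cells (log2 ratio 3.13, 2.30 to 3.99) and 892 CPM in macrophages (-2.13, -2.88 to -1.43).

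Among 18 measured carboxylesterase and lipid hydrolysis genes, Ces1d alone passed the floor against acinar cells. Its paralog Ces1e had 34 UMIs in acinar cells and 0 in ductal cells, where up to 21.6 CPM would go unseen. Ces2e had 49 UMIs, all in other cells, 43 of them endothelial. The lipases Lipe and Mgll were lower in ductal than in other cells. Lipe had 1 ductal UMI and a log2 ratio of -2.51 (-8.41 to -0.55). Mgll had 3 ductal UMIs and a log2 ratio of -3.89 (-6.40 to -2.55). Endothelial cells held 506 of the 689 UMIs of this list in other cells. Hilpda, an inhibitor of lipolysis, had 18 UMIs in 13 ductal cells; it was below the floor and was picked after its value was seen.

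Fatty acid binding genes split by class. Dbi, the acyl-CoA binding protein, had 773 UMIs in all 37 ductal cells (5576 CPM), against 154 CPM in acinar and 180 CPM in other cells. Fabp4, which carries fatty acids in adipocytes and capillaries, had 2 UMIs in ductal cells and 3982 in other cells. Scd2, a fatty acid desaturase, had a log2 ratio of ductal over other cells of 3.56, where the median over all genes tested was 0.08. Against acinar cells its log2 ratio was 2.25, near the median of 2.16 over all genes tested there. Of 9 genes of this list over the floor against other cells, 3 were higher, 2 lower and 4 between, with a median log2 ratio of 0.78 (0.74, and 2 higher, with genes at 0 set to their limit). Over all genes tested 16% were higher and 21.4% lower.

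Of the list of Ambp partners and lipocalins, 3 genes passed the floor against acinar cells, Ambp itself among them. Of these 2 were at least 2-fold higher in ductal cells and 1 was lower. Over all genes tested there 72.9% were higher and 10.7% lower, so nothing particular to the list is read from these counts. Itih4, a heavy chain of the inter-alpha-inhibitor family, had 65 UMIs in acinar cells and 0 in ductal cells. Itih5, of the same family, had 1 UMI in ductal and 52 in other cells (log2 ratio -2.30, -8.20 to -0.33). Itih2, whose protein is joined to bikunin, had 2 UMIs in ductal and 2 in acinar cells, too few for a comparison. Spint2, a Kunitz-type protease inhibitor as bikunin is, had 118 UMIs in ductal cells (851 CPM), 137 CPM in acinar and 44.7 CPM in other cells. The lipocalin Ptgds had 20 UMIs, all in ductal cells, and was also picked after its value was seen.

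The L6 family divided between cell types. Tm4sf1 had 1 UMI in ductal cells and 530 in other cells, 431 of them endothelial, the opposite of Tm4sf4. Tm4sf5 had 0 UMIs in ductal cells. The tetraspanins Cd9 and Cd63 were higher in ductal than in other cells, at log2 ratios of 1.88 (1.49 to 2.26) and 2.87 (2.48 to 3.26), while Cd81 stood at -0.27 (-0.54 to -0.03).

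Of 24 regulators known from liver and duct, 4 passed the floor: Hhex, Sox9, Hes1 and Bicc1 (an RNA-binding protein). These 4 were at least 2-fold higher in ductal cells in all 3 contrasts, where 72.9%, 26.7% and 16% of all genes tested were. Their median log2 ratio was 6.54 against acinar cells (6.68 with genes at 0 set to their limit), 4.19 against macrophages (2.97) and 3.75 against other cells (3.76). The medians over all genes tested were 2.16, 0.24 and 0.08. The other 20 genes were below the floor. Each of the 4 passed the floor on its ductal UMIs alone (Bicc1 61, Hhex 62, Hes1 91 and Sox9 99). The filter thus favoured genes high in ductal cells, and nothing particular to these regulators is read from the counts and medians. Hhex, a homeobox gene of foregut organs, had 62 UMIs in ductal and 0 in acinar cells (at least 156-fold). Onecut1 had 13 UMIs in ductal cells and Hnf4a had 3. Of 7 duct transport genes over the floor against acinar cells 6 were at least 2-fold higher, Ambp itself among them, and Ggt1 was lower (3 UMIs in ductal and 285 in acinar cells). Over all genes tested there 72.9% were higher and 10.7% lower, so nothing particular to the list is read from these counts.

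Hepatocyte transcripts were looked for because the 5 genes are known from liver. Of 16 markers 6 were measured. Ttr, transthyretin, had 86 UMIs in 28 ductal cells (620 CPM), 34.4 CPM in acinar cells and 1 UMI in other cells. Alb, albumin, had 6 UMIs in 4 ductal cells (43.3 CPM, 15.9 to 94.2) and 0 in the 3 other classes. Trf, transferrin, had 39 ductal UMIs, 19 of them in the cell without Epcam and Spp1, and 26 UMIs in macrophages. Hp and Apoa2 were at 0 in ductal cells and Cyp2e1 had 1 UMI. The summed markers ranged from 0 to 52.6 UMIs per 10000 in ductal cells (median 8.12). The highest value was that of the cell without Epcam and Spp1, from its 19 Trf UMIs. The part of these markers in the levels of the 5 genes was not tested. Among adipocyte markers, Adipoq and Retn were at 0 in ductal cells. Acinar transcripts, present in every class, made up 1.36% of UMIs in ductal and 1.35% in other cells.

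Against acinar cells both barcode endings gave higher Apoe in ductal cells, with different sizes. Apoe in ductal cells stood at 9645 CPM under ending 1 and 7190 CPM under ending 2, and in acinar cells at 20.5 and 94.3 CPM. The ratio was 472 (301 to 786) under ending 1 and 76.2 (40.8 to 158) under ending 2. Ending 2 holds 4 ductal cells with 9 Apoc1, 5 Ambp, 13 Tm4sf4 and 5 Ces1d UMIs, and 44 acinar cells with 1 Tm4sf4 UMI and none of the other 3.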

How the data were processed

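Single-cell libraries (10x Genomics) came from sorted pancreas cells of 1 group with 2 labelled replicates. The deposited table holds raw UMI counts (whole numbers), with 1 row a gene and 1 column a cell, as the authors deposited them. Cell Ranger and mm10 are named in the submitters' processing notes, without versions. How cells and genes were filtered before deposit is not stated. The 14793 rows were summed to 14789 symbols (4 symbols stood on 2 rows), of which 96.9% matched GENCODE M21. No label ties barcode endings to replicates, so the planned edgeR quasi-likelihood test on sums per sample was not run and no p-value is given.

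UMIs were summed per class and scaled to CPM. Intervals are exact at 95% (Poisson, Clopper-Pearson for shares, conditional binomial for ratios) and cover counting error only. A count of 0 was limited by 3 counts over the class. Genes needed 50 UMIs over both sets, a prior of 0.5 was added for log2 ratios, and a ratio of 2 was the call. Values come from Python 3.11.15, pandas 2.3.3, scipy 1.17.1 and scanpy 1.11.5, with code checked on simulated counts. Depth was 2353008 UMIs.

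The members and the gene lists were chosen with earlier results of these data known. Named genes were the 5 members, up to 4 genes per list with the most UMIs over both sets past the floor, hepatocyte, adipocyte and macrophage markers with a UMI in ductal cells, the 10 genes with the highest mean correlation and 3 per member within ductal cells; any other gene named was picked after its value was seen. Scrublet (seed 0) called 3 cells (0.412%), 1 of them ductal, and they were kept. Alternatives covered class thresholds, doublets, endings, shared barcodes, scaling, weighting, the UMI floor and thinning.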

Additional observations from a re-analysis of the deposited data

How the results depend on the processing

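All 5 genes stayed at least 2-fold higher in ductal than in acinar and other cells under each of the 13 alternatives run for these ratios, and no direction reversed. Against macrophages 4 genes were higher under each alternative but 1. With ending 2 alone, which holds 1 macrophage, 0 of 4 could be called. There 113, 9 and 9 genes in all were at least 2-fold higher in ductal cells than in acinar, macrophage and other cells. With all cells these were 705, 139 and 456 genes, or 72.9%, 26.7% and 16% of those tested. The floor of 50 UMIs was kept for ending 2, so the fall in these counts is not read as a change in share. In ending 2, 2 of the 5 genes were seen in over 50% of ductal cells, and 50% of those cells had at least 4 of the 5 (81.1% with all cells). Keeping cells that met more than 1 rule in each class gave 60% and 221 genes against other cells. Thinning gave 3 genes and 40.5%. A floor of 20 UMIs gave 1902, 421 and 1233 genes, and a floor of 1 UMI 10047, 2917 and 5406, with more genes tested at each lower floor. Across alternatives the log2 ratio of Apoe ran from 6.25 to 8.88 against acinar, from 3.72 to 5.28 against other cells and from -1.59 to -0.62 against macrophages. Without Spp1 in the rule, the log2 ratio of Apoc1 against other cells was 5.46. With the main rule it was 8.20, the 0 in other cells being set to its limit. Leaving out the cell without Epcam and Spp1, chosen after seeing the data, gave 83.3%. Apart from the number of genes that pass the floor, the cause of these shifts was not tested. No paired analysis was possible because cells could not be tied to the replicates of the single group, and leaving out each replicate could not be run for the same reason. With 37 ductal cells and 21 macrophages, levels under 21.6 and 59.5 CPM could go unseen.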
